A study of Mus musculus with 16 samples.

Results

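Calbindin, calretinin, parvalbumin and 5 neuronal calcium sensors are small cytosolic proteins that bind calcium through EF-hand motifs. Their genes, Calb1, Calb2, Pvalb, Hpca, Hpcal1, Hpcal4, Ncald and Vsnl1, were taken by symbol from the 55385 gene identifiers counted in mouse dorsal hippocampus. All 8 were found, and all 8 were among the 16899 genes tested. The set was chosen by the values of Calb1, which had been called higher with Dnmt3a2 at both days in these libraries. Its difference between the virus groups is therefore given as a description with no test. The other 7 genes were added for their function and were read from the fit over all genes.

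The tissue came from mice injected in the dorsal hippocampus with a recombinant adeno-associated virus (rAAV) carrying exogenous Dnmt3a2, a short isoform of the DNA methyltransferase Dnmt3a, or GFP as the control. All mice were fear-conditioned to a context 3 weeks later, and the hippocampus was taken 1 day or 5 days after that. The 4 groups were Dnmt3a2 at 1 day (Dnmt3a2_1d), Control at 1 day (Control_1d), Dnmt3a2 at 5 days (Dnmt3a2_5d) and Control at 5 days (Control_5d), with 4 libraries each. Every group thus carried a virus and was trained, and no untrained or uninjected animals entered. The promoter and serotype of the virus, the cells it reached, and the strain, age and sex of the mice are not stated in the labels. Nor is it stated that the libraries are from different animals. The p-values thus set group differences only against the spread between these libraries, which may be technical.

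Libraries held 28.6 to 30.0 M estimated counts, and a level in CPM is a count relative to the scaled total of its library. Dnmt3a checked the labels, with 964 ± 238 CPM in Dnmt3a2_1d and 34.8 ± 0.797 CPM in Control_1d, and with 1161 ± 110 CPM in Dnmt3a2_5d and 35.1 ± 2.15 CPM in Control_5d (SD, n = 4 each). Some libraries stood apart in other tissue signals. The summed level of 15 choroid plexus markers was 1202 CPM in Dnmt3a2_1d replicate 1 and 1870 CPM in Dnmt3a2_5d replicate 1, and 134 to 378 CPM in the others. The summed level of 15 interferon-response genes was 126, 168 and 109 CPM in those 2 libraries and in Control_1d replicate 1, and 50.7 to 82.4 CPM in the others. Where leaving these libraries out moved a virus difference by over 1.5 times, both values are given. Markers of dentate granule cells, CA1 and CA3 pyramidal cells and interneurons were present in every library.

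Calbindin, calretinin and parvalbumin are classed mainly as buffers, proteins that take up calcium entering during activity and so shape the size and duration of the calcium signal. In the mouse hippocampus calbindin is typical of dentate granule cells, of superficial CA1 pyramidal cells and of some interneurons. Calretinin is typical of some mossy cells, immature granule cells and a class of interneurons, and parvalbumin of fast-spiking basket and axo-axonic cells. Hippocalcin (Hpca), its relatives Hpcal1, Hpcal4 and Ncald, and visinin-like 1 (Vsnl1) are neuronal calcium sensors. They carry a myristoyl group that is exposed when calcium binds and brings the protein to a membrane, where it acts on other proteins.

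The calcium-binding loop of an EF hand is 12 residues long, and the loops show how close the members are. The coding stretch of the first loop matching the PROSITE EF-hand pattern is given for Calb1 and Calb2 from the GENCODE M21 transcripts on build GRCm38. Capitals mark bases that differ from Calb1.
Calb1: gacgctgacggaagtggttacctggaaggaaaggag
Calb2: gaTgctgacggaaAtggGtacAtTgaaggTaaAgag
The Calb1 stretch lies on the plus strand at chr4:15881468-15881983 and the Calb2 stretch on the minus strand at chr8:110156971-110168053, each running from exon 1 into exon 2 across an intron. They differ at 7 of 36 bases, and 10 of 12 codons give the same residue. Over the whole proteins, of 261 and 271 residues, identity was 58.3%. Calb1 had 4 loops matching the pattern, Calb2 had 5 and Pvalb, of 110 residues, had 2.

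The sensors are closer to each other than the buffers are, which bears on how far their reads can be told apart. Capitals mark bases that differ from Hpca.
Hpca: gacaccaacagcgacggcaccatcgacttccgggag
Hpcal1: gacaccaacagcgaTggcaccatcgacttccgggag
Ncald: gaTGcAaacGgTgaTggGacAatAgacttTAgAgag
Hpcal4: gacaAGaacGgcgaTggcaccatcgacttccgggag
Vsnl1: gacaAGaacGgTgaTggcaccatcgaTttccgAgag
These are at chr4:129118490-129118525 (minus strand, exon 2), chr12:17786387-17786422 (plus, exon 2), chr15:37397183-37397218 (minus, exon 5), chr4:123189079-123189114 (plus, exon 4) and chr12:11332127-11332162 (minus, exon 3), in the order shown. Hpcal1 differed from Hpca at 1 base and at no residue of the loop. Ncald differed at 12 bases, Vsnl1 at 7 and Hpcal4 at 4, each with 10 of 12 residues shared. Over the whole protein Hpca was 93.8% identical to Hpcal1, 88.1% to Ncald, 67.9% to Hpcal4 and 67.4% to Vsnl1, while Hpcal4 and Vsnl1 were 89.5% identical. Calb1 shared 19.9% to 22.6% of residues with the sensors.

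How far transcripts can be told apart also depends on other genes. The submitters' processing notes name kallisto, which assigns reads through short words of sequence, 31 bases long by default. Calb2 and Pvalb shared no such 31-mer with another gene, and Calb1, Hpcal4 and Vsnl1 shared 0.289%, 0.429% and 0.675% of theirs. Hpca shared 2.48% and Ncald 6.55%. Hpcal1 shared 327 of its 1664 31-mers, or 19.7%, only 16 of them with another of the 8 genes. Its counts are therefore uncertain. A group of 37 other genes, most of them unprocessed pseudogenes, shared at least 20 31-mers with it. The strand of the counting and the step from transcripts to genes are not stated in the labels. Hpca and Ncald overlap other genes in position, but those were low, at most 0.333 CPM on average.

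Set per kilobase of transcript, so that genes of different length can be compared, 4 of the 5 sensors stood above the buffers. Hpca, on chromosome 4 at 129111570 to 129122036, was highest at 1855 CPM per kb on average over the 16 libraries. Hpcal4 followed at 500 (chromosome 4, 123183227 to 123194701), then Vsnl1 at 227 (chromosome 12, 11325242 to 11436613) and Ncald at 195 (chromosome 15, 37366175 to 37792570), all in CPM per kb. Vsnl1, at 192 to 253 CPM per kb over the libraries, and Ncald, at 173 to 214, overlapped. Lower down, Hpcal1 averaged 38.3 (chromosome 12, 17690856 to 17791933), Calb1 27.4 (chromosome 4, 15881264 to 15908064) and Pvalb 23.4 CPM per kb (chromosome 15, 78191114 to 78206400). Calb1, at 20.2 to 33.9 CPM per kb over the libraries, overlapped both Hpcal1 (32.1 to 46.2) and Pvalb (16.4 to 28.9), so the order of these neighbours was not larger than their spread. Calb2 was lowest at 4.56 CPM per kb (chromosome 8, 110137502 to 110168210). These lengths are means over each gene's coding transcripts. With the longest transcript instead, Vsnl1 stood above Hpcal4 (214 against 192 CPM per kb), and Hpcal1 was level with Calb1 (27.9 against 27.4 CPM per kb). The unscaled levels of the 5 sensors summed to 3635 to 4370 CPM per library and those of the 3 buffers to 115 to 168 CPM.

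**Figure D1:**
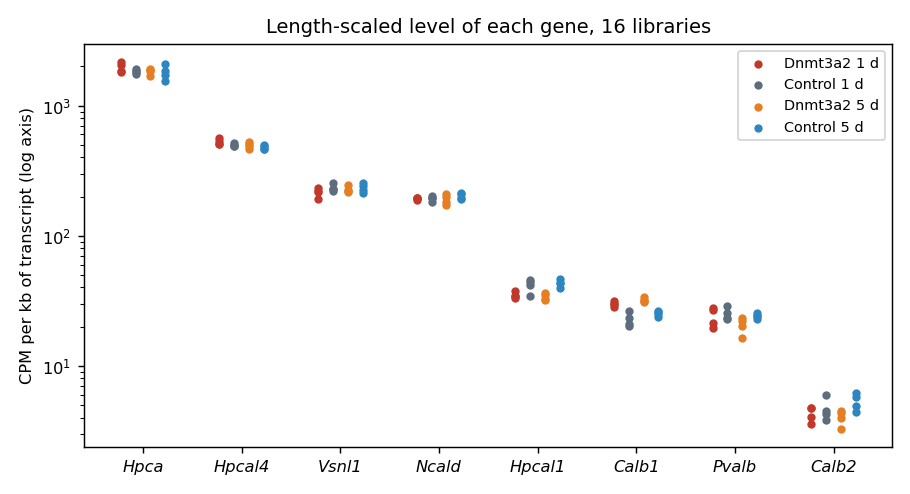
CPM per kb of transcript on a log axis for each gene, 1 point per library, with the 4 groups side by side. Hpca lies highest near 1855 and Calb2 lowest near 4.56, and the ranges of Vsnl1 and Ncald and those of Hpcal1, Calb1 and Pvalb overlap.

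Depth set the precision of the members unevenly. Calb2 rested on 125 to 222 counts per library, and counting error alone gave it a coefficient of variation of 7.71%, beside 15.8% between libraries of a group. For Hpca, with at least 56003 counts, the same values were 0.39% and 8.21%. Calb1, with 2452 to 4249 counts, had 1.71% from counting and 6.49% between libraries. For all 8 genes the spread between libraries of a group was larger than counting error.

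Calb1 was higher with Dnmt3a2 at both days. At 1 day it had 119, 132, 126 and 125 CPM in Dnmt3a2_1d and 88.5, 98.5, 112 and 85.1 CPM in Control_1d. At 5 days it had 130, 136, 134 and 143 CPM in Dnmt3a2_5d and 111, 106, 99.8 and 109 CPM in Control_5d. The groups did not overlap on either day, and each Dnmt3a2 library at either day was above each control library at either day. The mean was 125 ± 5.22 CPM in Dnmt3a2_1d and 96.0 ± 12 CPM in Control_1d, a ratio of 1.31 (95% interval 1.18 to 1.44). It was 136 ± 5.48 CPM in Dnmt3a2_5d and 106 ± 4.95 CPM in Control_5d, a ratio of 1.28 (1.16 to 1.41). The spread in Control_1d came mainly from replicate 3 at 112 CPM, the highest control library. On the log2 scale the difference was 0.39 (SE 0.07) at 1 day and 0.35 (SE 0.07) at 5 days. As these differences chose the gene, their intervals and SEs are descriptions and set no bound. The 2 choroid-rich libraries had the lowest Calb1 of their groups, 119 and 130 CPM. Without them the difference was 0.41 and 0.37, and without the 3 interferon-rich libraries 0.37 and 0.37.

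**Figure D2:**
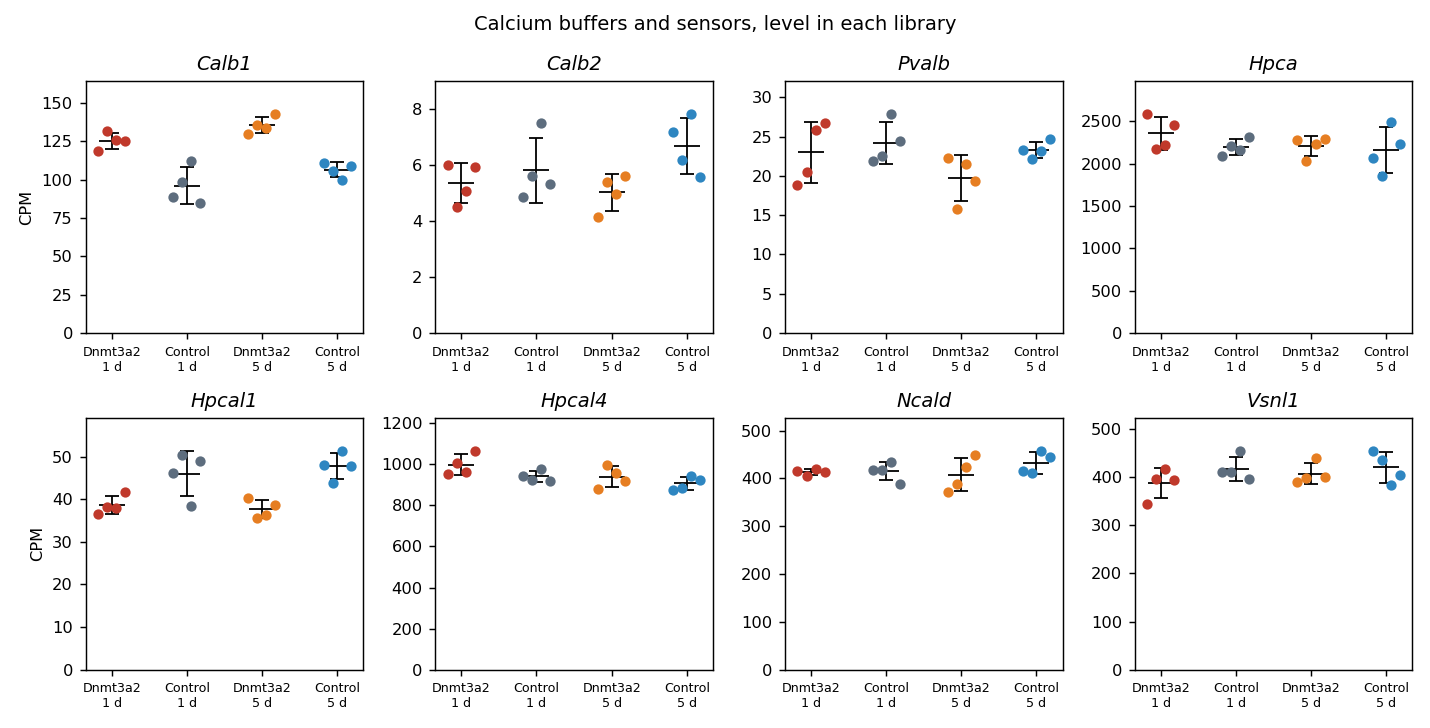
CPM of each gene in each of the 16 libraries, 1 point per library, with horizontal lines at the group mean and bars of 1 SD (n = 4). Calb1 lies at 119 to 143 CPM in the Dnmt3a2 libraries and at 85.1 to 112 CPM in the controls, Hpcal1 is lower in most Dnmt3a2 libraries, and the other 6 genes overlap between virus groups.

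Bulk RNA cannot tell fewer cells of a type from less RNA per cell, nor more from more. Markers of the cells that carry calbindin are therefore set beside it. The 12 dentate granule cell markers summed to 808 to 976 CPM in Dnmt3a2_1d and 809 to 980 CPM in Control_1d, and to 796 to 869 CPM in Dnmt3a2_5d and 878 to 984 CPM in Control_5d. Their sums overlapped at 1 day and were lower with Dnmt3a2 at 5 days. Of these 12, 8 were above 0 at 1 day (median log2 fold change 0.05) and 7 at 5 days (0.01). C1ql2 alone was called, at 5 days, and it was lower with Dnmt3a2. The 6 CA1 markers summed to 924 to 1027 CPM in Dnmt3a2_1d and 946 to 1080 CPM in Control_1d, and to 898 to 991 CPM in Dnmt3a2_5d and 885 to 1074 CPM in Control_5d. The 18 interneuron markers, 17 of them tested, summed to 1193 to 1375 CPM in Dnmt3a2_1d and 1199 to 1407 CPM in Control_1d. At 5 days they summed to 1293 to 1461 CPM in Dnmt3a2_5d and 1290 to 1479 CPM in Control_5d. The CA1 and interneuron sums overlapped between virus groups at both days. Of the CA1 markers 3 of 6 were above 0 at 1 day (median -0.02) and 4 of 6 at 5 days (0.07). Of the interneuron markers it was 6 of 17 (-0.06) and 9 of 17 (0.01), and none of either list was called. After each group's mean was subtracted, Calb1 had Pearson r = 0.54 with the granule markers, 0.47 with CA1 and 0.72 with interneurons. These values, over the 16 libraries, are descriptions. The part of cell composition in the Calb1 difference was not tested.

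Calb2 and Pvalb, the other buffers, did not pass the test at either day. Calb2 had 5.98, 4.51, 5.06 and 5.93 CPM in Dnmt3a2_1d and 4.84, 5.59, 7.49 and 5.31 CPM in Control_1d. Its log2 fold change was -0.11 (SE 0.15, 95% interval -0.42 to 0.20, edgeR adjusted p = 0.927), and the groups overlapped. Without the 2 choroid-rich libraries it was -0.17, and without the 3 interferon-rich libraries -0.25 (edgeR adjusted p = 0.831). At 5 days it had 4.13, 5.40, 4.97 and 5.62 CPM in Dnmt3a2_5d and 7.18, 6.18, 7.82 and 5.58 CPM in Control_5d. The groups overlapped only through the lowest control library, and the log2 fold change was -0.41 (SE 0.15, interval -0.72 to -0.10), with an unadjusted p of 0.0115 and an edgeR adjusted p = 0.399. Without the 2 choroid-rich libraries it was -0.33 (edgeR adjusted p = 0.487). Markers of mossy cells and immature granule cells, named above for calretinin, are set beside these values. Which cells carried Calb2 in this dorsal tissue was not measured. The 5 mossy cell markers had sums of 169 to 187 CPM in Dnmt3a2_1d and 153 to 158 CPM in Control_1d, and of 166 to 179 CPM in Dnmt3a2_5d and 147 to 153 CPM in Control_5d. These sums were separated, but single markers were mixed, with 4 of 5 above 0 at 1 day (median log2 fold change 0.11) and 3 of 5 at 5 days (0.04), and none called. The 6 immature neuron markers, 5 of them tested, summed to 55.2 to 70.1 CPM in Dnmt3a2_1d and 49.9 to 56.5 CPM in Control_1d. At 5 days they summed to 55.7 to 63.4 CPM in Dnmt3a2_5d and 57.1 to 60.8 CPM in Control_5d. Of the 5 tested, 4 were above 0 at 1 day (median 0.24) and 2 at 5 days (-0.07), and none was called. The part of either cell type in the Calb2 values was not tested.

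Pvalb had 18.9, 20.5, 25.9 and 26.7 CPM in Dnmt3a2_1d and 21.9, 22.6, 27.9 and 24.4 CPM in Control_1d, a log2 fold change of -0.07 (SE 0.11, interval -0.31 to 0.17, edgeR adjusted p = 0.943). Without the choroid-rich libraries this was 0.011 and without the interferon-rich libraries -0.034. At 5 days it had 22.3, 15.8, 21.5 and 19.4 CPM in Dnmt3a2_5d and 23.3, 22.2, 23.2 and 24.7 CPM in Control_5d. Replicate 1 of Dnmt3a2_5d lay just inside the control range and the other 3 below it. The log2 fold change was -0.24 (SE 0.11, interval -0.48 to 0.00, edgeR adjusted p = 0.623). The 5 other markers of fast-spiking interneurons summed to 74.8 to 87.2 CPM in Dnmt3a2_5d and 74.7 to 89.5 CPM in Control_5d, and 1 of the 5 was above 0 with a median log2 fold change of -0.25. Among the buffers, then, Calb1 was higher with Dnmt3a2 while Calb2 and Pvalb were on average lower, by less than the test could call.

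Among the sensors, Hpcal1 stood out by its lower level with Dnmt3a2. At 1 day it had 36.6, 38.1, 38.0 and 41.6 CPM in Dnmt3a2_1d and 46.2, 50.3, 38.5 and 48.9 CPM in Control_1d. The groups overlapped through Control_1d replicate 3, the same control library that was highest for Calb1. The log2 fold change was -0.25 (SE 0.08, interval -0.41 to -0.10, edgeR adjusted p = 0.371). At 5 days it had 40.3, 35.7, 36.4 and 38.7 CPM in Dnmt3a2_5d and 48.1, 43.9, 51.4 and 47.7 CPM in Control_5d. These groups did not overlap, with means of 37.8 ± 2.09 CPM in Dnmt3a2_5d and 47.8 ± 3.07 CPM in Control_5d (SD, n = 4 each). The log2 fold change was -0.34 (SE 0.08, interval -0.49 to -0.18), with an unadjusted p of 0.000222 and an edgeR adjusted p = 0.0559, so it missed the threshold of 0.05.

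The Hpcal1 call at 5 days depended on the setting. The adjusted p was 0.0243 when only the groups compared were fitted with edgeR, 0.00438 with DESeq2, 0.0082 with edgeR and no filter on low counts, and 0.041 with edgeR without the 2 choroid-rich libraries. Without the 3 interferon-rich libraries the edgeR adjusted p was 0.0407. It was not passed with limma-trend on the deposited log2 values (adjusted p = 0.0548), with the replicate block (edgeR adjusted p = 0.0548) or with DESeq2's size factors in edgeR (adjusted p = 0.0552). With each library left out in turn the edgeR adjusted p ran from 0.0163 to 0.181. The log2 fold change was -0.38 to -0.30 with 1 library left out, and -0.34 or -0.37 in the other settings. The 37 genes that share 31-mers with Hpcal1 were set beside it, since its reads could be split with theirs. Their sum was 59.7 ± 5.29 CPM in Dnmt3a2_5d and 57.2 ± 7.34 CPM in Control_5d, and it overlapped between the groups. Asap2, which encodes an Arf GTPase-activating protein, made up most of it, with 47.8 ± 5.91 CPM in Dnmt3a2_5d and 46.2 ± 6.95 CPM in Control_5d, and the other 36 genes summed to 11.9 ± 0.880 CPM in Dnmt3a2_5d and 10.9 ± 1.32 CPM in Control_5d (SD, n = 4 each). Whether reads were shared out differently between groups was not tested.

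**Figure D3:**
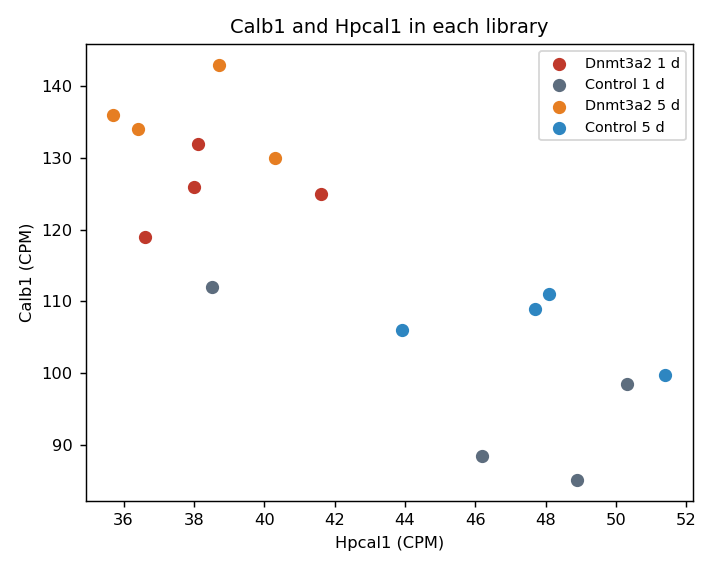
Calb1 level (CPM, vertical axis) against Hpcal1 level (CPM, horizontal axis), 1 point per library, coloured by group. The 8 Dnmt3a2 libraries lie at 119 to 143 CPM of Calb1 and at 35.7 to 41.6 CPM of Hpcal1, and of the controls only Control_1d replicate 3, at 112 CPM of Calb1, reaches that Hpcal1 range.

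The abundant sensors differed little between virus groups. Hpca, the main hippocampal sensor, had 2360 ± 196 CPM in Dnmt3a2_1d and 2195 ± 93.9 CPM in Control_1d, a log2 fold change of 0.10 (SE 0.07, interval -0.05 to 0.26, edgeR adjusted p = 0.847). At 5 days it had 2208 ± 119 CPM in Dnmt3a2_5d and 2163 ± 270 CPM in Control_5d (0.03, SE 0.07, interval -0.12 to 0.18, edgeR adjusted p = 0.966). Its libraries overlapped on both days, from 1859 to 2589 CPM over the 16. Without the choroid-rich libraries the differences were 0.057 and 0.015, and without the interferon-rich libraries 0.034 and 0.015.

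Hpcal4 had 998 ± 51.1 CPM in Dnmt3a2_1d and 941 ± 25.2 CPM in Control_1d, with log2 fold changes of 0.09 at 1 day (SE 0.05, edgeR adjusted p = 0.765) and 0.05 at 5 days (SE 0.05, edgeR adjusted p = 0.884). Ncald, which is known to bind clathrin, had 408 ± 35.4 CPM in Dnmt3a2_5d and 432 ± 23.0 CPM in Control_5d (-0.08, SE 0.06, edgeR adjusted p = 0.805). At 1 day its difference was -0.01 (SE 0.06, edgeR adjusted p = 0.994). Vsnl1, a sensor of cortical and hippocampal pyramidal cells, had 388 ± 30.5 CPM in Dnmt3a2_1d and 417 ± 25.6 CPM in Control_1d (-0.10, SE 0.06, edgeR adjusted p = 0.797), and -0.04 at 5 days (SE 0.06, edgeR adjusted p = 0.943). The 95% intervals of Hpca, Hpcal4, Ncald and Vsnl1 lay between -0.24 and 0.26 on the log2 scale, which limits any difference in either direction to about that size without showing that there was none. Without the choroid-rich libraries Vsnl1 was at -0.052 and -0.023, and without the interferon-rich libraries at -0.06 and -0.024. For Ncald at 5 days both gave -0.04, and for Hpcal4 at 5 days both gave 0.08.

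Markers of neocortex, which a dissection can include and which also expresses Vsnl1, are set beside these values. The 10 markers summed to 347 to 449 CPM in Dnmt3a2_1d and 411 to 496 CPM in Control_1d, and to 371 to 437 CPM in Dnmt3a2_5d and 386 to 466 CPM in Control_5d. At 1 day 3 of 10 were above 0 with a median log2 fold change of -0.37, and at 5 days 2 of 10 with -0.17, and none was called. After each group's mean was subtracted, Pearson r with these markers ran from -0.61 for Hpca to 0.87 for Vsnl1 over the 16 libraries. These values are descriptions, and the part of neocortex in the results of the 8 genes was not tested.

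Counted over the 8 genes, Calb1 was the single gene called at each day. Over all tested genes 0.0888% were called at 1 day and 0.32% at 5 days. As Calb1 was chosen for these calls, nothing is read from that count. At 1 day the count was 0 without the 3 interferon-rich libraries, and 1 without the 2 choroid-rich libraries. Of the other 7 genes, the main edgeR fit called none at either day. DESeq2 and some of the other edgeR settings called Hpcal1 at 5 days. The groups overlapped for all 7 at 1 day, when 3.43% of all genes were separated, and at 5 days Hpcal1 was separated, when 6.29% of all genes were. An unadjusted p under 0.05 was found for 1 of the 7 at 1 day and 3 at 5 days, beside 7.17% and 8.01% of all genes. The median log2 fold change of the 7 was -0.07 at 1 day and -0.08 at 5 days, with 2 of 7 above 0 each time. Over all genes it was 0.003 and 0.008, with 50.9% and 52.8% above 0.

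**Figure D4:**
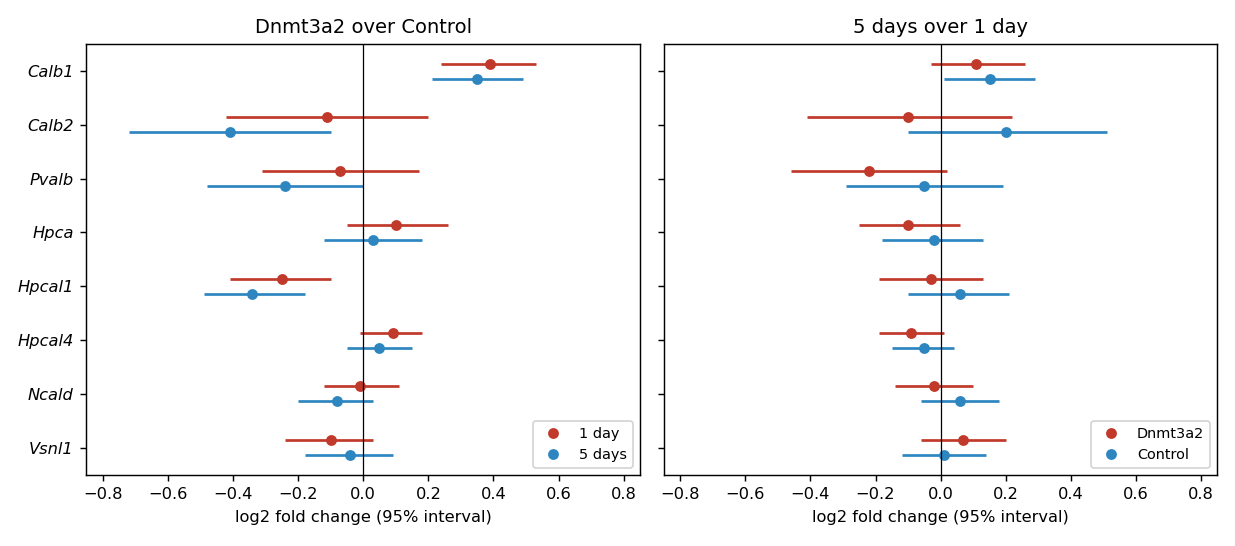
log2 fold change of each gene with its 95% interval, Dnmt3a2 over Control at 1 and 5 days on the left and 5 days over 1 day within each virus group on the right. On the left Calb1, shown as a description since its values chose the set, is at 0.39 and 0.35, and the Hpcal1 intervals, -0.41 to -0.10 and -0.49 to -0.18, lie below 0. On the right the intervals of 7 genes cross 0 in both groups, and for Calb1, again a description, the control interval runs from 0.01 to 0.29.

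Whether the Dnmt3a2 difference itself moved between days was tested as the difference of the 2 effects, 5 days minus 1 day. For Calb1 it was -0.04 (SE 0.10, 95% interval -0.24 to 0.17) and for Hpcal1 -0.08 (SE 0.11, interval -0.31 to 0.14). The widest was that of Calb2, at -0.30 (SE 0.21, interval -0.74 to 0.14), and Pvalb had -0.17 (SE 0.16, interval -0.51 to 0.17). None of the 8 genes passed (edgeR adjusted p = 1 for each), and 0.0% of all genes did. At an unadjusted p under 0.05 there were none of the 8 and 360 of all genes, and DESeq2 called 1 gene over all. Both virus differences of Calb1 had chosen the set, so their difference too is a description with no test, and its interval sets no bound.

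Between days within a virus group, none of the 8 genes passed either. At 5 days against 1 day with Dnmt3a2, log2 fold changes ran from -0.22 for Pvalb (SE 0.11, edgeR adjusted p = 0.51) to 0.11 for Calb1 (SE 0.07, edgeR adjusted p = 0.569). The genes called were 0.0% of all with edgeR, although 1822 had an unadjusted p under 0.05 and DESeq2 called 53. None of the 8 was separated between days, where 5.17% of all genes were. In the controls the range was from -0.05 for Hpcal4 (SE 0.05) to 0.20 for Calb2 (SE 0.15), each with an edgeR adjusted p = 0.999. Calb1 had 106 ± 4.95 CPM in Control_5d and 96.0 ± 12 CPM in Control_1d, a difference of 0.15 (SE 0.07, interval 0.01 to 0.29) with an unadjusted p of 0.0416 and an edgeR adjusted p = 0.999. The same libraries gave the virus differences that chose Calb1, so its differences between days are descriptions too. Again 0.0% of all genes were called, with 598 at an unadjusted p under 0.05 and none with DESeq2, and no member was separated, where 2.4% of all genes were.

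The rest of the calcium-handling machinery was followed in 7 lists of 87 genes besides these 8, of which 67 were tested. None was called higher or lower in any of the 5 comparisons, neither with Dnmt3a2 nor between days. Of all tested genes 0.0888% were called at 1 day, 0.32% at 5 days and 0.0% in each other comparison. At such shares a count of 0 among 67 says little about these genes. At 1 day 40 of the 67 were above 0 with a median log2 fold change of 0.03, and 8 had an unadjusted p under 0.05. At 5 days 33 were above 0 with a median of -0.005, and 7 had an unadjusted p under 0.05. The unadjusted counts are 11.9% and 10.4% of the 67, beside 7.17% and 8.01% of all genes. The groups did not overlap for 3 of the 67 at 1 day (4.48%, beside 3.43% of all genes) and for 4 at 5 days (5.97%, beside 6.29%). By edgeR the smallest adjusted p was 0.239 at 1 day and 0.249 at 5 days.

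These smallest values belonged to a lumenal chaperone and a calmodulin-binding protein. Calr, calreticulin of the endoplasmic reticulum (ER), had 405 ± 72.8 CPM in Dnmt3a2_1d and 326 ± 13.4 CPM in Control_1d (log2 0.31, SE 0.08, edgeR adjusted p = 0.239), and 10 of the 13 ER calcium-binding genes were above 0 with a median of 0.09. At 5 days the Calr difference was 0.05 (edgeR adjusted p = 0.95). Nrgn, neurogranin, which holds calmodulin at low calcium, had 2378 ± 149 CPM in Dnmt3a2_5d and 2753 ± 172 CPM in Control_5d (log2 -0.21, SE 0.06, edgeR adjusted p = 0.249). At 1 day the Nrgn difference was -0.02 (edgeR adjusted p = 0.98). It is 1 of 5 calmodulin-sequestering genes, whose median at 5 days was -0.04.

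Of the 5 further sensors tested, Kcnip3, known as DREAM, had the smallest p at both days, with 120 ± 12 CPM in Dnmt3a2_1d and 110 ± 7.75 CPM in Control_1d, and 121 ± 3.06 CPM in Dnmt3a2_5d and 108 ± 4.75 CPM in Control_5d (log2 0.13 and 0.17, edgeR adjusted p = 0.729 and 0.462). Among calmodulin and its relatives, with 17 genes tested and medians of 0.003 and 0.02, it was Tesc, tescalcin, at 46.0 ± 5.16 CPM in Dnmt3a2_1d and 39.9 ± 2.81 CPM in Control_1d and at 42.6 ± 2.18 CPM in Dnmt3a2_5d and 36.5 ± 3.15 CPM in Control_5d (log2 0.20 and 0.22, edgeR adjusted p = 0.548 and 0.394). Both genes were on average higher with Dnmt3a2 at each day, within what the test could not call.

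Scgn, secretagogin, was the sole further buffer of its type that could be tested, at 1.59 ± 0.232 CPM in Dnmt3a2_1d and 1.40 ± 0.196 CPM in Control_1d and at 1.25 ± 0.261 CPM in Dnmt3a2_5d and 1.53 ± 0.337 CPM in Control_5d. In the S100 family, EF-hand proteins with many glial members, 6 of 8 genes were above 0 at 1 day and 1 of 8 at 5 days, with S100b at 76.6 ± 5.16 CPM in Dnmt3a2_1d and 65.3 ± 8.45 CPM in Control_1d (log2 0.23, edgeR adjusted p = 0.431). At 5 days the S100b difference was -0.02 (edgeR adjusted p = 0.98). Beside the S100b value at 1 day, 9 of 10 oligodendrocyte markers were above 0 at 1 day (median 0.18) and 8 of 10 astrocyte markers (median 0.10), none called, and their part was not tested. The 18 pumps, exchangers and mitochondrial uptake genes that clear calcium had medians of -0.02 at 1 day and 0.04 at 5 days.

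**Figure D5:**
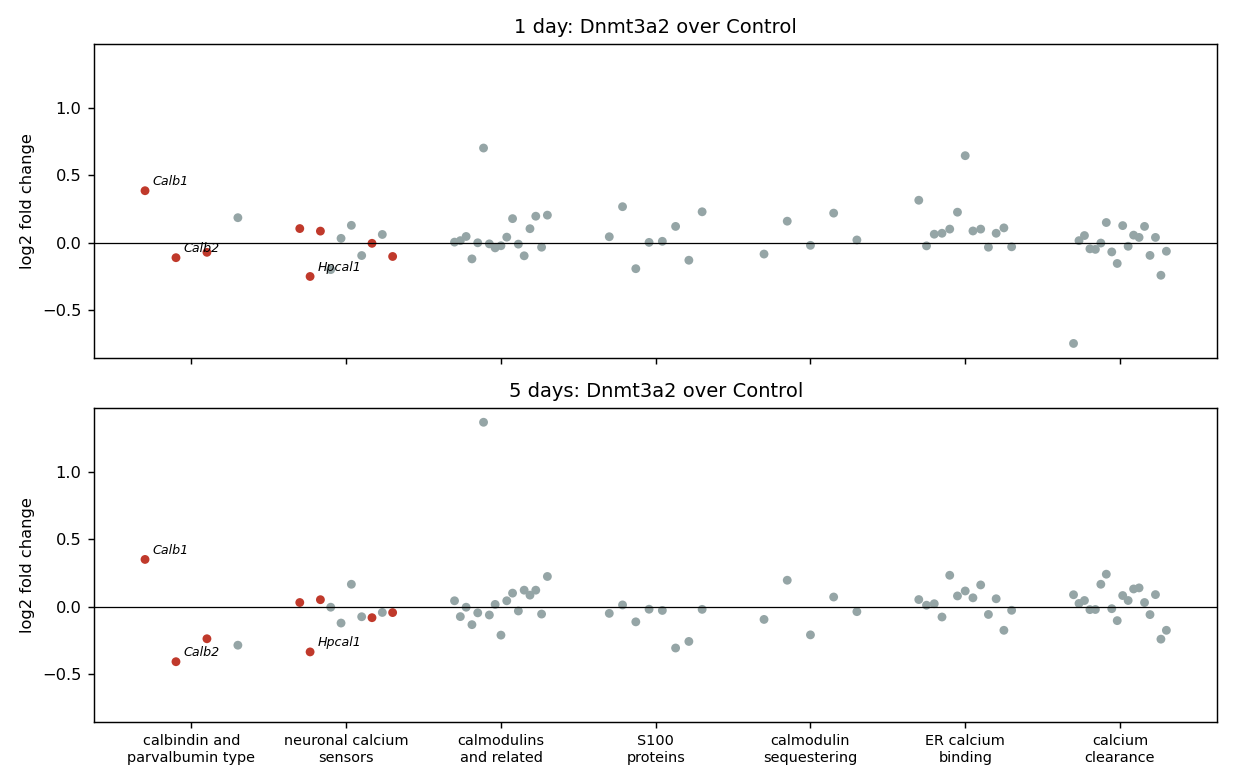
log2 fold change, Dnmt3a2 over Control, of each tested gene in 7 calcium lists, at 1 day (top) and 5 days (bottom). Red points are the 8 genes described here, and grey points are other list members, none of which was called. Of all tested genes 0.0888% were called at 1 day and 0.32% at 5 days. The highest grey point, named after its value was seen, is Calml4 at 0.70 and 1.37 (edgeR adjusted p = 0.927 and 0.818). The choroid-rich libraries, both in the Dnmt3a2 groups, are included, and their part in this value was not tested.

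Last, the variation of each gene between libraries of the same group was compared with that of 13277 other protein-coding genes over the 16 libraries, after the mean of each group had been subtracted. Values in 1 library share its dissection, RNA and scaling, so these correlations are descriptions. The genes named are the highest of all those searched, and such a search can give a high r on its own. The 3 genes closest to Calb1 were Hnrnpa3 (Pearson r = 0.89, Spearman rho = 0.80, r = 0.71 without the 2 end libraries), Dnaja2 (0.89, 0.86 and 0.83) and Ube2e1 (0.88, 0.82 and 0.77). Closest to Hpcal1 were Fggy (0.88, 0.84 and 0.75), Sharpin (0.85, 0.85 and 0.76) and Stra6 (0.85, 0.76 and 0.64). Those closest to Pvalb were Cadm4 (0.92, 0.92 and 0.89), Ift20 (0.92, 0.83 and 0.85) and Mtln (0.91, 0.85 and 0.90).

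For Calb2 they were Gpc5 (0.85, 0.86 and 0.77), Zfat (0.83, 0.77 and 0.72) and Bambi (0.79, 0.71 and 0.68), the lowest Pearson r of the 8 genes. Closest to Hpca were Mmp17, Dgat2 and Cabp7 (r = 0.92, 0.91 and 0.91), to Hpcal4 Rap1gap2, Akap17b and Tmem87b (0.93, 0.87 and 0.83), to Ncald 5730409E04Rik, Psmd2 and Nmnat2 (0.91, 0.84 and 0.83), and to Vsnl1 Adgra1, Pknox2 and Ldb2 (0.92, 0.92 and 0.91). No gene was closest to more than 1 member. Between members r ran from -0.64 for Hpca and Vsnl1 to 0.62 for Calb1 and Vsnl1 over 28 pairs. Calb1 and Hpcal1, whose means differed in opposite directions between virus groups, had r = -0.54 and rho = -0.24 within groups. Hpcal1 overlapped between virus groups at 1 day and was separated only at 5 days.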

How the data were processed

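Each of the 16 libraries was made from 500 ng of total RNA, per the labels' protocols, and sequenced on BGISEQ-500. Trimming, counting and statistics tools are named in the submitters' processing notes as Trim Galore (0.6.4), then kallisto (0.4.6), and edgeR (3.17), with build GRCm38.p6. Annotation release, strand and step order: not given in the sources used here. The authors deposited estimated counts (expected counts, not normalised, 15.1% of values not whole at a tolerance of 0.001) for 55385 identifiers, 55144 of them named here with GENCODE M21. They also deposited log2 CPM for 16907 genes, which differed from edgeR's log2 CPM of those counts by at most 5.329e-15. All pairs of libraries were compared for duplicates, and the chi-square per gene over 120 pairs was 4.46 to 44.64, so each counted as 1 sample.

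Counts were rounded, filtered by group (filterByExpr), scaled by TMM and fitted with edgeR 4.0.16 (R 4.3.3) in 1 robust quasi-likelihood model with a term per group and no replicate block. This left 16899 genes, with Benjamini-Hochberg adjustment over all of them and calls at an adjusted p under 0.05. With 28.6 to 30.0 M counts per library, 1 CPM stands for 28.6 to 30.0 counts. Intervals are the model's 95% intervals. The script was tested on simulated data. Named are the 8 genes and Dnmt3a, in each calcium list the gene with the smallest p where none was called, given for part of the lists, and for each member the 3 protein-coding genes of at least 1 CPM with the highest Pearson r. The members and lists were chosen with earlier results of these data known. Alternatives were DESeq2 1.42.0 and its size factors, no low-count filter, limma-trend (limma 3.58.1) on the deposited log2 values, only the groups compared, a replicate block and each library left out. Leaving out the choroid-rich or interferon-rich libraries was added after seeing the data. Sequences and identities were computed with Biopython 1.88 from GENCODE M21 transcripts.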

Additional observations from a re-analysis of the deposited data

How the results depend on the processing

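Of 951 values of the 8 genes under 24 other settings, 905 kept their direction and side of the threshold. The count of the 8 genes called at 1 day, 1, was 0 when only the groups compared were fitted and 0 without the 3 interferon-rich libraries, and 0 to 1 when each library was left out. It was lost without Dnmt3a2_1d replicate 2 or 3 or Control_1d replicate 1, 2 or 4, and the Calb1 log2 difference was 0.33 to 0.47 over all libraries left out. At 5 days the count, 1, was 2 with no low-count filter, with only the groups compared, with DESeq2 and without the choroid-rich or interferon-rich libraries, Hpcal1 joining. It was 0 to 2 with each library left out. It was 0 without Dnmt3a2_5d replicate 2, 3 or 4 or any Control_5d library, the Calb1 difference being 0.32 to 0.37 over all, and 2 without Dnmt3a2_1d replicate 4 or Control_1d replicate 3 (Hpcal1 adjusted p = 0.0458 and 0.0163 by edgeR, 0.0163 to 0.181 over all libraries left out).

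Over all genes, calls at 1 day, 15, were 34 with no filter, 7 with only the groups compared, 60 with DESeq2 and 6 to 22 with each library left out. Calls at 5 days, 54, were 94 with only the groups compared, 138 with DESeq2, 90 without the choroid-rich and 105 without the interferon-rich libraries, and 22 to 82 with each left out. Calls between days with Dnmt3a2, 0, were 6 with no filter, 53 with DESeq2 and 0 to 1 with each left out. The difference of effects had 0 calls, and 1 with DESeq2. The cause was not tested.

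Values near 0 changed sign. Pvalb at 1 day was 0.011 without the choroid-rich libraries, and between days with Dnmt3a2, Calb2 was 0.044 and Ncald 0.028 without the choroid-rich or interferon-rich ones. With each library left out, the virus difference at 1 day ran from -0.19 to 0.033 for Calb2, -0.15 to 0.011 for Pvalb and -0.036 to 0.018 for Ncald, and at 5 days from -0.036 to 0.11 for Hpca. Between days it ran from -0.061 to 0.006 for Hpcal1 and -0.074 to 0.025 for Ncald with Dnmt3a2, and in controls from -0.097 to 0.023 for Pvalb, -0.098 to 0.045 for Hpca, -0.02 to 0.10 for Hpcal1 and -0.032 to 0.052 for Vsnl1. The difference of effects ran from -0.12 to 0.018 for Calb1 and -0.14 to 0.002 for Hpca.

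Nothing in the labels but a shared number pairs the libraries. Of 24 pairs of equal number 10 had r above 0.1 (range -0.102 to 0.45), with a median of 0.059 beside -0.02 for unequal numbers, and 10 of 16 libraries correlated best with their own number. Replicate 1 of Dnmt3a2_1d, Dnmt3a2_5d and Control_1d also shared a high interferon-response signal, and the first 2 a high choroid plexus signal. The part of pairing or of these signals in the correlations was not tested. With the replicate block 17 genes were called at 1 day and 65 at 5 days, and the count of the 8 genes was 1 at each.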
